A study of Homo sapiens with 4 samples.

Results

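The protein-coding genes whose symbols run from ZNF500 to ZNF799 were followed in Jurkat cells exposed to GNE987. Members were chosen by name alone, as protein-coding rows whose symbol is ZNF followed by a number that starts with 5, 6 or 7 and has 3 digits, with or without a letter after it. They made up 193 of the 26733 genes in the deposited table. Jurkat is an established line grown from a T-cell acute lymphoblastic leukaemia (T-ALL). GNE987 is a degrader, a BET-binding end joined to an end that binds the ubiquitin ligase VHL, which sends BET bromodomain proteins to the proteasome. The treated group was Jurkat cells given GNE987 at a labelled dose of 25 nmol, with no volume stated, for 24 h. The untreated group was Jurkat cells with no treatment named. Each group had 2 libraries of polyadenylated RNA. The comparison asked how loss of BET proteins changes transcript levels in this leukaemia line. Whether the replicates were separate cultures is not labelled, and p-values cover only the spread among these 4 libraries.

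Most of these genes encode proteins with a row of C2H2 zinc fingers, each a small fold that holds a zinc ion and can contact DNA. Many also carry a KRAB domain near the amino terminus, which binds TRIM28. TRIM28 in turn brings the histone methyltransferase SETDB1 and HP1 proteins, and the complex silences transposable elements and some genes. Such genes lie in clusters, above all on chromosome 19, where they arose by repeated duplication. Other members have no KRAB domain and act in RNA processing, ribosome maturation, or as partners of other chromatin complexes. BET proteins read acetylated histones and help RNA polymerase II leave the promoter-proximal pause.

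The total count was 17024157 and 16041022 in the GNE987 libraries and 18938465 and 18441248 in the untreated libraries. The members took 0.322% and 0.304% of the counts in the GNE987 libraries and 0.290% and 0.298% in the untreated libraries. The T-cell identity of the line was present, since all 11 T-cell markers on the list had a row and their summed level was 2216 and 2378 CPM with GNE987 and 3369 and 3234 CPM without it (CPM, read counts at a common library size, scaled by TMM, the trimmed mean of M values). Within the list CD7 was higher and 7 markers, among them LCK and CD247, were lower with GNE987. The 5 myeloid markers summed to 142 and 147 CPM in the GNE987 libraries, against 0.539 and 29.7 CPM in untreated replicates 1 and 2, and none of them was at 0 in any library. The summed level was at most 0.919 CPM in any library for the erythroid markers and 0.725 CPM for the epithelial ones, and 9.19 and 9.06 CPM with GNE987 against 2.24 and 2.52 CPM without it for the fibroblast markers. The B-cell markers summed to 97.6 and 107 CPM with GNE987, against 40.9 and 51.3 CPM, nearly all of it CD79A. The part of these marker changes in the members' results was not tested. In bulk RNA, fewer cells of a type and less RNA per cell cannot be told apart.

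Untreated replicate 2 stood apart from untreated replicate 1. Per degree of freedom, the chi-square between the counts of a pair was 4.60 for GNE987 and 34.6 for untreated cells. Across the table, 56 genes had at most 3 counts in untreated replicate 1 and at least 10 CPM in both GNE987 libraries, and MPO, an enzyme of neutrophil granules, was among them, with 72.6 and 77.3 CPM with GNE987 and 0.0898 and 15.5 CPM in untreated replicates 1 and 2. In untreated replicate 2 these 56 genes stood between 11.1% and 26.9% of their mean level with GNE987, with a median of 19.2%. No member was among the 56, whose limits were chosen after the values were seen. Of the members called higher, 63 of 65 had a level in untreated replicate 2 that lay toward the GNE987 libraries, at a median of 18.7% of the distance in CPM, and of those called lower 43 of 49 did so, at a median of 17.3%. The members did not stand out in this, since over all genes 93.3% of those called higher and 89.3% of those called lower lay toward the GNE987 libraries, at medians of 18.5% and 19.9%. Whether RNA or reads of the libraries were mixed was not tested. If they were, fold changes that include untreated replicate 2 understate the difference. Values without untreated replicate 2 are given where they move by over 1.5-fold.

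The members moved in both directions. Of the 193, 164 had enough counts to be tested, 65 rose and 49 fell with GNE987, and 50 did not pass the threshold of an adjusted p of 0.05 (edgeR quasi-likelihood F test, Benjamini-Hochberg over 15910 genes). Across all genes tested, 34.4% were called higher and 37.2% lower, 71.6% in all. Among the members 39.6% were called higher and 29.9% lower. The median log2 fold change of the tested members was 0.18, with quartiles at -0.97 and 1.14, beside -0.03 over all genes. The other protein-coding ZNF genes, 226 tested of 253, had 84 higher, 83 lower and a median of 0.01. Changes of at least 2-fold were counted in 46 of the members that rose and in 39 of those that fell. Over all 15910 genes tested the same counts were 3919 and 4384. For all 114 called members the 2 GNE987 libraries lay on the same side of both untreated ones, and so they did for every called gene of the table.

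The count that rose depended on which library was left out. It was 33 without GNE987 replicate 1 and 37 without GNE987 replicate 2, when the untreated pair alone sets the spread, and 76 without untreated replicate 2. The count that fell was 37 when either GNE987 library was left out and 59 without untreated replicate 2. Over all genes the counts moved too, with 2206 of 16719 genes higher and 4100 lower without GNE987 replicate 1, 2209 of 16833 and 4161 without GNE987 replicate 2, and 6816 of 16902 and 6525 without untreated replicate 2. The direction of the median depended on the scaling. With library size alone 50 members were higher and 67 lower with a median of -0.19, while the median of all genes moved to -0.41. Measured against the median of all genes, the members' median stood at 0.21 with TMM factors and at 0.22 with library size alone, but at 0.03 both with no filter on low counts and in DESeq2, which take in all 193 members and all genes. In the authors' deposited table, 60 members had an adjusted p under 0.05 with a positive log2 fold change and 46 with a negative one.

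**Figure D1:**
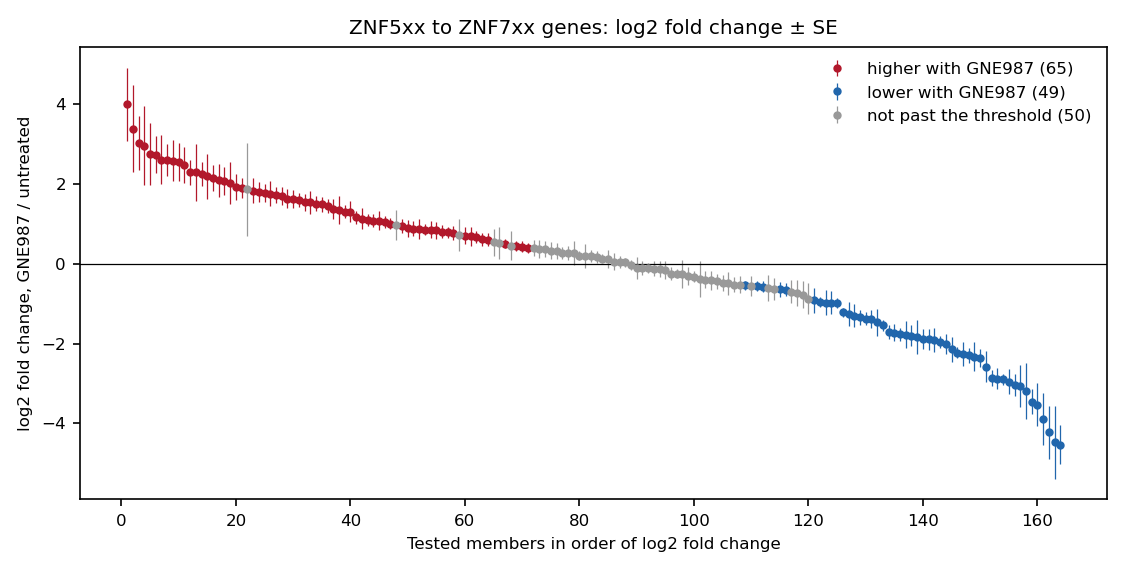
Log2 fold change (GNE987 over untreated, y axis) of the 164 tested members, ordered from the largest rise to the largest fall along the x axis, with bars of 1 standard error. Red points are the 65 members called higher, blue points the 49 called lower and grey points the 50 that did not pass the threshold; the widest bars lie at both ends.

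Among members with a KRAB pattern rises outnumbered falls, and among members without one falls outnumbered rises. A KRAB A-box pattern was found in the translated coding transcripts of 128 members. Of these, 108 were tested, 48 rose and 25 fell, with a median log2 fold change of 0.42. Of the 65 members without the pattern, 56 were tested, 17 rose and 24 fell, with a median of -0.47. The shares called higher and lower were 44.4% and 23.1% with the pattern and 30.4% and 42.9% without it. Among all tested genes they were 34.4% and 37.2%, so falls outnumbered rises there too. Without untreated replicate 2 the medians, over the members that passed the filter there, were 0.53 with the pattern and -0.32 without it. With library size alone they were 0.05, with 37 higher and 35 lower, and -0.84, with 13 higher and 32 lower. Over all genes 4103 were higher and 7164 lower with that scaling, with a median of -0.41. Against the median of all genes, members with the pattern stood at 0.45 and those without it at -0.43, with TMM factors and with library size alone. With no filter on low counts the values were 0.19 and -0.44, and in DESeq2 0.19 and -0.45. When either GNE987 library was left out, fewer members of both kinds were called, as over all genes. The excess of rises among KRAB members was then smaller. Against the median of all genes, KRAB members stood at 0.37 without GNE987 replicate 1 and 0.49 without GNE987 replicate 2. The members without the pattern stood at -0.36 and -0.29. No test was made of the difference between these 2 kinds of gene.

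Rises outnumbered falls among KRAB members both on chromosome 19 and off it with TMM factors, while with library size alone the counts were 23 and 21 on it and 14 and 14 off it. On chromosome 19, 69 KRAB members were tested, of which 30 rose and 13 fell with a median of 0.40. On other chromosomes 39 were tested, of which 18 rose and 12 fell with a median of 0.51. Without GNE987 replicate 1 these medians were 0.31 on chromosome 19 and 0.29 off it, and without GNE987 replicate 2 they were 0.40 and 0.49. In both fits fewer KRAB members were called, as over all genes, and the excess of rises was smaller. Of the 13 members on chromosome 19 without the pattern 5 rose and 7 fell, with a median of -1.37, and of the 43 elsewhere 12 rose and 17 fell, with a median of -0.44. Chromosome 19 as a whole held 100 members. Of its 82 that were tested 35 rose and 20 fell, with a median of 0.37, which library size alone took to -0.00. Its gap to the median of all genes was 0.40 with TMM factors and 0.41 with library size alone, but 0.19 with no filter and in DESeq2. When either GNE987 library was left out, fewer were called in both directions, as over all genes, and the excess of rises was lost or nearly so. The median was 0.27 without GNE987 replicate 1 and 0.40 without GNE987 replicate 2. These values lay 0.33 and 0.45 above the median of all genes. By the number of fingers, 29 of 79 members with more than 9 C2H2 patterns and 36 of 85 with 9 or fewer rose, while 22 and 27 fell. By number range, 25 of 66 tested ZNF5xx genes rose and 15 fell, 19 of 52 ZNF6xx genes rose and 20 fell, and 21 of 46 ZNF7xx genes rose and 14 fell. For comparison, 34.4% of all tested genes were called higher and 37.2% lower. The ZNF6xx genes, at 36.5% and 38.5%, lay near those shares. No difference between the groups in this paragraph was tested.

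**Figure D2:**
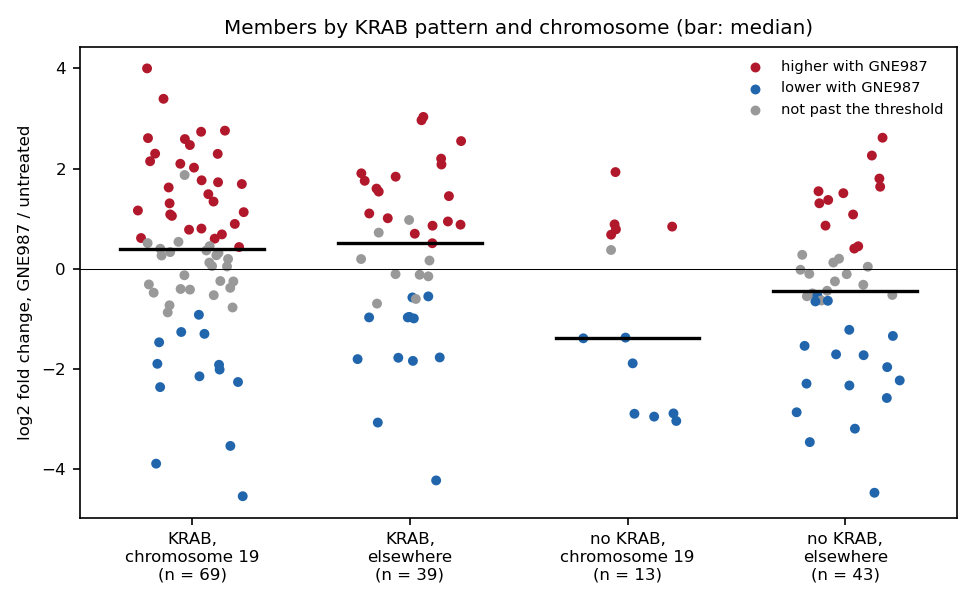
Log2 fold change (GNE987 over untreated, y axis) of each tested member, split along the x axis by KRAB pattern and by chromosome 19 or elsewhere; each point is a gene and the black bar is the median. The bars of both KRAB groups lie above 0, at 0.40 and 0.51, and those of both groups without the pattern below 0, at -1.37 and -0.44. With library size alone the KRAB median as a whole is 0.05, where that of all genes is -0.41.

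Neighbouring members could move in opposite directions. Of 56 pairs of tested members that follow each other with starts within 100 kb, 15 had both members higher, 5 had both lower and 12 had a member called each way, and in 24 at least 1 member was not called. Of all tested members 39.6% were called higher and 29.9% lower. The pair counts were not compared with pairs of members that are not neighbours or of other genes. Among pairs transcribed away from each other, head to head, 4 were called the same way and 5 opposite ways. Among pairs on the same strand the counts were 15 and 7, and among pairs end to end 1 and 0.

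The largest difference between opposite neighbours was that of ZNF772 and ZNF773, KRAB genes whose starts are set head to head on chromosome 19. ZNF773 (chromosome 19, 57499915 to 57518404, plus strand, build GRCh38) had 71.2 and 65.2 CPM with GNE987, against 6.51 and 15.9 CPM in untreated cells. Both GNE987 values lay far above both untreated ones, and the log2 fold change was 2.61 ± 0.41 (SE; adjusted p = 0.00356; 3.4 without untreated replicate 2). ZNF772 (chromosome 19, 57466663 to 57477570, minus strand) had only 3 counts in the GNE987 libraries together, against 70 in the untreated ones. Its level was 0.0628 times that of untreated cells, with an exact 95% counting interval of 0.0126 to 0.191, and its adjusted p was 0.00433. The promoter windows of this pair and of 2 further ones are shown after them because the neighbours moved apart.

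ZNF699 and ZNF559, also head to head on chromosome 19 with KRAB patterns, came next. ZNF699 (chromosome 19, 9294275 to 9309838, minus strand) had 18.4 and 14.1 CPM with GNE987 and 1.35 and 3.56 CPM without it. ZNF559 (chromosome 19, 9323772 to 9351162, plus strand) had 1.64 and 1.52 CPM with GNE987 and 8.71 and 6.52 CPM without it. The groups did not overlap for either gene, and the log2 fold changes were 2.74 ± 0.46 and -2.26 ± 0.3 (SE; adjusted p = 0.00438 and 0.00212). Without untreated replicate 2 ZNF699 was at 3.6. Of the exonic bases of ZNF559, 12.9% also belong to the readthrough gene ZNF559-ZNF177, so its counts are uncertain.

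On chromosome 16, ZNF688 and ZNF785 lie on the same strand. ZNF785 (chromosome 16, 30573740 to 30585771, minus strand) had 14.6 and 14.6 CPM with GNE987 and 0.539 and 3.06 CPM without it, a log2 fold change of 3.03 ± 0.69 (SE; adjusted p = 0.0114). ZNF688 (chromosome 16, 30569346 to 30572734, minus strand) had 2.43 and 2.9 CPM with GNE987 and 10.5 and 8.15 CPM without it, a log2 fold change of -1.8 ± 0.27 (SE; adjusted p = 0.00299). ZNF785 was higher in both treated libraries and ZNF688 lower in both, with no overlap. A gene on the opposite strand, AC002310.2, covers 27.0% of the exonic bases of ZNF785, and the kit does not mark the strand, so reads of the 2 genes cannot be told apart. ZNF785 lost its call when either GNE987 library was left out, and was at 4.75 without untreated replicate 2.

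ZNF547 and ZNF548 lie on the same strand of chromosome 19. ZNF547 (chromosome 19, 57363477 to 57379565, plus strand) had 19.9 and 17.8 CPM with GNE987 and 2.56 and 6.27 CPM without it, with a log2 fold change of 2.1 ± 0.42 (SE; adjusted p = 0.00744), a call lost without GNE987 replicate 1, and 2.89 without untreated replicate 2. ZNF548 (chromosome 19, 57389850 to 57402992, plus strand) had 2.36 and 1.96 CPM with GNE987 and 11.3 and 11 CPM without it, with a log2 fold change of -2.36 ± 0.24 (SE; adjusted p = 9.00e-04). Here too the GNE987 and untreated values did not overlap.

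The promoters of 3 of these opposite pairs are printed from RefSeq (GRCh38.p14), from 250 bases before to 50 bases after the annotated start, 5′ to 3′ on the strand of the gene. Capitals mark matches on either strand to the motifs searched: the CCAAT box (CCAAT), the GC box (GGGCGG), the ETS core (CCGGAA), the cAMP response element (TGACGTCA), the E-box (CACGTG), the TATA box (TATAAA) and the NRF1 motif. None of the 7 motifs contains another. ZNF773 lies at chr19:57499688-57499987, plus strand, ZNF772 at chr19:57477517-57477816, minus strand, ZNF785 at chr16:30585648-30585947, minus strand, ZNF688 at chr16:30571665-30571964, minus strand, ZNF547 at chr19:57363301-57363600, plus strand and ZNF548 at chr19:57389604-57389903, plus strand.
ZNF773: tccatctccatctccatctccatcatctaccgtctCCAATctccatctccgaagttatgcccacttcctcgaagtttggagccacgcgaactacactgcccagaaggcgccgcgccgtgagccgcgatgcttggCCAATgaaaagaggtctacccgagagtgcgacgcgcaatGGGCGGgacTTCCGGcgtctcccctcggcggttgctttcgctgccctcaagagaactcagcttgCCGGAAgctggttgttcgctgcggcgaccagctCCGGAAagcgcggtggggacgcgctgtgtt
ZNF772: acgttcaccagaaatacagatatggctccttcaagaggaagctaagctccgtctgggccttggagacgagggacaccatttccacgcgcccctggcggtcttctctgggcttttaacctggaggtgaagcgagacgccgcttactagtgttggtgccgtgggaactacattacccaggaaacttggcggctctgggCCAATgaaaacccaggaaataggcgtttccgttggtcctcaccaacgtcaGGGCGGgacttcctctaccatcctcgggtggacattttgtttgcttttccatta
ZNF785: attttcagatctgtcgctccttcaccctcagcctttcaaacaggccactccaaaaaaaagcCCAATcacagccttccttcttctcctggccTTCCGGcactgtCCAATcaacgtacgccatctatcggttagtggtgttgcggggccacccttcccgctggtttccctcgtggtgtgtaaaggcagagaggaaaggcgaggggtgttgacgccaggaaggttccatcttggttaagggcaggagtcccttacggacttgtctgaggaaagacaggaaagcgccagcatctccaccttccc
ZNF688: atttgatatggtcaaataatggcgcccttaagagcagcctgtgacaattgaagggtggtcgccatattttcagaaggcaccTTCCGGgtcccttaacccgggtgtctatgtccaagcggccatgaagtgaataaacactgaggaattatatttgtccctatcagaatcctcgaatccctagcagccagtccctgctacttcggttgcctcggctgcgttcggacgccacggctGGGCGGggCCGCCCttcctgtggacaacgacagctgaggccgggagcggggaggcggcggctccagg
ZNF547: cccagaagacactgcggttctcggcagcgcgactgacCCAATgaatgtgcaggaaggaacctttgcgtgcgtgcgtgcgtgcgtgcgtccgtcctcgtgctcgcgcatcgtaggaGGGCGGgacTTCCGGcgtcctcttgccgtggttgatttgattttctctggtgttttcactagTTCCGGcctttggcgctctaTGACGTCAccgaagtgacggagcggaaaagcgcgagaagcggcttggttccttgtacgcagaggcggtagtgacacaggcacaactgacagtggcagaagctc
ZNF548: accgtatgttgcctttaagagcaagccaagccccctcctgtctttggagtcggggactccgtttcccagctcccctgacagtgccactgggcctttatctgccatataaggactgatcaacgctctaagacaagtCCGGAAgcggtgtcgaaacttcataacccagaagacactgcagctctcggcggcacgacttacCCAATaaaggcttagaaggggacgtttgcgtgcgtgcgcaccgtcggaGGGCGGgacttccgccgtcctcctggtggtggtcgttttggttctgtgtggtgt

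In these windows ZNF773 held 30 CpG dinucleotides with CCAAT, GC and ETS matches, whereas ZNF772 held 16 CpG with CCAAT and GC matches and no ETS letters. ZNF547 held 30 CpG with CCAAT, GC, ETS and cAMP response element matches, and ZNF548 held 20 CpG with CCAAT, GC and ETS matches. ZNF785 held 12 CpG with CCAAT and ETS matches, and ZNF688 held 19 CpG with GC and ETS matches. The member of the pair that rose thus had the higher CpG count in the 2 chromosome 19 pairs shown and the lower one on chromosome 16. The window of ZNF688 lies wholly inside the coordinates given for that gene above, which come from an annotation other than RefSeq. The chromosome 16 comparison therefore depends on which start of ZNF688 is taken.

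Promoters of 162 members could be matched in RefSeq. The ETS core stood in 50.6% of them, against 17.6% of all 27305 promoters of the same length. The GC box stood in 63.6% against 44.6%, the CCAAT box in 48.1% against 35.7%, and the NRF1 motif in 15.4% against 6.28%. The TATA box was in 3.70% of member promoters against 12% of all, the E-box in 5.56% against 7.43% and the cAMP response element in 3.70% against 1.98%. The median promoter of a member held 22 CpG, against 14 over all promoters. Among the members, the ETS core stood in 51.9% of the 52 promoters of genes called higher, 41.5% of the 41 of genes called lower and 60.9% of the 46 of genes not called. The NRF1 motif stood in 13.5%, 24.4% and 13.0% of them. These shares are a description of letters, and no difference between them was tested.

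The 12 largest rises among members with a mean of at least 2 CPM ran from 2.15 to 3.39 on the log2 scale. Of the 12, 10 carry a KRAB pattern, as do 108 of the 164 tested members and 48 of the 65 called higher. ZNF600, a KRAB gene with 18 finger patterns (chromosome 19, 52749942 to 52786807, minus strand), had 7.88 and 7.46 CPM with GNE987 and 0 and 1.48 CPM in untreated replicates 1 and 2. It had no count in untreated replicate 1, so without untreated replicate 2 the rise is at least 57.0-fold, against a floor of 3 counts in that library. With all 4 libraries the log2 fold change was 3.39 ± 1.09 (SE; adjusted p = 0.0357). The call was lost when either GNE987 library was left out, with the replicate block (adjusted p = 0.0543) and in DESeq2 (adjusted p = 0.265). Of its 50-base stretches, 10.02% are shared, mainly with ZNF611, so part of its count is uncertain.

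ZNF556 and ZNF555 are KRAB genes side by side near the end of the short arm of chromosome 19. ZNF555 had 43.6 and 39.3 CPM with GNE987 and 4.0 and 11 CPM without it, a log2 fold change of 2.47 ± 0.45 (SE; adjusted p = 0.00566). ZNF556 had 8.6 and 7.1 CPM with GNE987 and 0.269 and 2.07 CPM without it, a log2 fold change of 2.76 ± 0.78 (SE; adjusted p = 0.0234), and its call was lost when either GNE987 library was left out. Without untreated replicate 2 ZNF555 was at 3.38 and ZNF556 at 4.84. In both genes untreated replicate 1 was lowest and untreated replicate 2 next, below both treated libraries.

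ZNF703, a corepressor of the NET family known as an oncogene of luminal breast cancer, had 61.6 and 68.6 CPM with GNE987 and 4.13 and 17.2 CPM without it. Its log2 fold change was 2.62 ± 0.62 (SE; adjusted p = 0.0129), and 3.98 without untreated replicate 2. The call was lost when either GNE987 library was left out. ZNF789 had 95.7 and 88.6 CPM with GNE987 and 8.13 and 23.4 CPM without it, the highest treated level of the 12, with a log2 fold change of 2.55 ± 0.48 (SE; adjusted p = 0.00611). ZNF761 had 70.9 and 69.9 CPM with GNE987 and 9.74 and 18.9 CPM without it, with a log2 fold change of 2.3 ± 0.31 (SE; adjusted p = 0.00239). ZNF654, which has no KRAB pattern, had 54.6 and 51.2 CPM with GNE987 and 7.72 and 14.4 CPM without it. The other 2 rises not yet described, ZNF525 and ZNF570, had log2 fold changes of 2.59 ± 0.52 and 2.15 ± 0.33 (SE; adjusted p = 0.00761 and 0.00338), and ZNF525 lost its call when either GNE987 library was left out. Without untreated replicate 2 ZNF789 was at 3.51 and ZNF525 at 3.7. Without untreated replicate 1, ZNF600, ZNF785, ZNF556, ZNF699, ZNF703, ZNF525, ZNF789 and ZNF555 were lower by over 1.5-fold, at log2 fold changes between 1.85 and 2.30. The 12 were chosen with both GNE987 libraries above both untreated ones. In all 12 untreated replicate 2 lay above untreated replicate 1, as it did in 93.3% of all genes called higher.

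**Figure D3:**
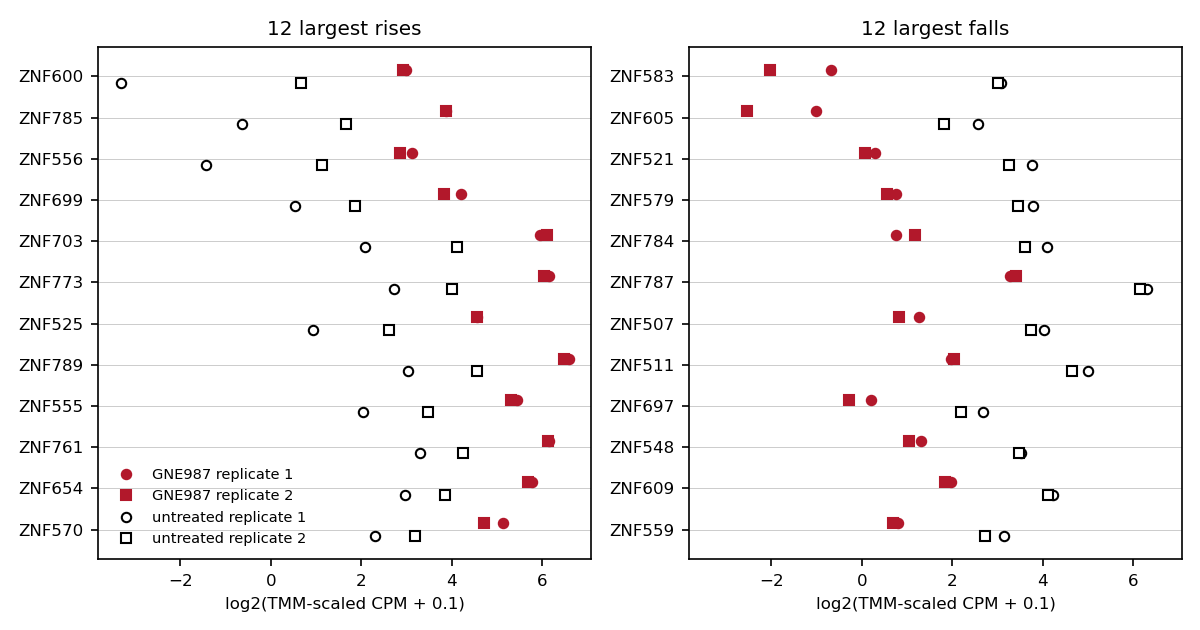
Level in each library, as log2 of TMM-scaled CPM plus 0.1 (x axis), of the 12 members with the largest rises (left) and the 12 with the largest falls (right). Filled red symbols are GNE987 and open black symbols untreated, circles replicate 1 and squares replicate 2; in the left panel the untreated pair is spread, with replicate 2 nearer to the GNE987 libraries, and in the right panel the untreated pair lies closer together.

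The 12 largest falls ran from -4.54 to -2.26, and their untreated libraries lay closer together than those of the rises. ZNF583, a KRAB gene (chromosome 19, 56397966 to 56436035, plus strand), had 0.525 and 0.145 CPM with GNE987 and 8.31 and 7.95 CPM without it. Its log2 fold change was -4.54 ± 0.49 (SE; adjusted p = 0.00115), and -4.56 without untreated replicate 2. ZNF605, a KRAB gene on chromosome 12, had 0.394 and 0.0725 CPM with GNE987 and 5.79 and 3.41 CPM without it, with a log2 fold change of -4.23 ± 0.67 (SE; adjusted p = 0.00365). Both genes were near the limit of detection in the treated libraries, and without GNE987 replicates 1 and 2 ZNF583 was at -5.76 and -3.96 and ZNF605 at -5.88 and -3.55.

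ZNF521, a regulator of early blood progenitors with 27 finger patterns, had 1.12 and 0.942 CPM with GNE987 and 13.4 and 9.43 CPM without it. Its log2 fold change was -3.46 ± 0.32 (SE; adjusted p = 7.16e-04). ZNF609, a partner of the cohesin loader NIPBL and of Integrator, had 3.81 and 3.48 CPM with GNE987 and 18.7 and 17.1 CPM without it, with a log2 fold change of -2.29 ± 0.19 (SE; adjusted p = 5.00e-04). Each fell by more than 4-fold, with both untreated libraries far above both treated ones.

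ZNF787, ZNF784, ZNF579 and ZNF507 lie on chromosome 19 and have no KRAB pattern. ZNF787 had 9.58 and 10.6 CPM with GNE987 and 79.1 and 70.9 CPM without it, the highest untreated level of the 12. Its log2 fold change was -2.9 ± 0.14 (SE; adjusted p = 2.92e-04). ZNF579 had 1.58 and 1.38 CPM with GNE987 and 13.6 and 10.8 CPM without it, and ZNF784 1.58 and 2.17 CPM against 17 and 12 CPM. ZNF507 had 2.3 and 1.67 CPM with GNE987 and 16.3 and 13.3 CPM without it. Their log2 fold changes were -3.04, -2.95 and -2.89 (adjusted p = 6.12e-04, 9.99e-04 and 6.97e-04). ZNF697 on chromosome 1 and ZNF511 on chromosome 10 had log2 fold changes of -2.58 and -2.87 (adjusted p = 0.00301 and 3.55e-04), and TUBGCP2 on the opposite strand covers 46.8% of the exonic bases of ZNF511. No call among the 12 falls was lost in any of the alternatives.

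Levels between members were compared with the FPKM the authors deposited, which is per length. ZNF622, a factor of late 60S ribosomal subunit maturation, had the highest mean, with 89 and 87.5 FPKM with GNE987 and 22.1 and 34.4 FPKM without it. It rose, with a log2 fold change of counts of 1.64 ± 0.24 (SE; adjusted p = 0.00278). ZNF574 had 41.1 and 43.7 FPKM with GNE987 and 7.66 and 14.5 FPKM without it, and rose by 1.93 ± 0.32 on the log2 scale (SE; adjusted p = 0.00413). ZNF581 had 38.3 and 44.2 FPKM with GNE987 and 19.4 and 25.1 FPKM without it, and 23.4% of its exonic bases also belong to ZNF580. All 3 were higher in both treated libraries.

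ZNF672, ZNF598 and ZNF692 complete the 6 highest levels. ZNF672 had 25.7 and 27 FPKM with GNE987 and 23.5 and 24.7 FPKM without it, and did not pass the threshold (adjusted p = 0.356). ZNF692, its neighbour on chromosome 1, had 9.24 and 8.53 FPKM with GNE987 and 21.4 and 20.003 FPKM without it, and fell by 1.22 on the log2 scale (adjusted p = 7.55e-04). ZNF598, the ubiquitin ligase that marks collided ribosomes, had 22.4 and 25 FPKM with GNE987 and 23.5 and 24.5 FPKM without it, with a log2 fold change of -0.02 ± 0.12 (SE; adjusted p = 0.888). The groups overlapped for ZNF598, as they did in CPM for ZNF592 and for ZNF558, the other 2 genes nearest 0, whose log2 fold changes were 0.04 ± 0.12 and 0.05 ± 0.14 (SE; adjusted p = 0.763 and 0.785). The sign of these 3 values and of ZNF672 turns with the scaling or the filter.

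Of 20 members with a row on a list of genes with a role beside KRAB repression, 6 rose, 6 fell, 5 did not pass the threshold and 3 were not tested. Over all tested genes 34.4% were called higher and 37.2% lower. Among those that rose, ZNF687, which forms the Z3 complex with ZNF592 and ZMYND8, had 88.2 and 93.4 CPM with GNE987 and 24.7 and 37.4 CPM without it, a log2 fold change of 1.55 ± 0.21 (SE; adjusted p = 0.00245). ZNF644, a partner of WIZ and of the methyltransferases EHMT1 and EHMT2, had 48.3 and 44.3 CPM with GNE987 and 24.1 and 26.9 CPM without it, a log2 fold change of 0.86 ± 0.13 (SE; adjusted p = 0.00306). ZNF746, the repressor called PARIS, and ZNF706 rose by 0.51 and 0.4 on the log2 scale (adjusted p = 0.00908 and 0.0313), and both calls were lost under several alternatives.

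Among those that fell, ZNF638, which brings the HUSH complex to unintegrated retroviral DNA, had 11.6 and 12.2 CPM with GNE987 and 36.5 and 32.9 CPM without it. Its log2 fold change was -1.54 ± 0.13 (SE; adjusted p = 6.12e-04). ZNF639 had 9.98 and 8.99 CPM with GNE987 and 47.2 and 41.8 CPM without it, and ZNF512 7.88 and 8.26 CPM with GNE987 and 33.7 and 29.3 CPM without it. They fell by 2.23 and 1.96 on the log2 scale (adjusted p = 3.31e-04 and 4.45e-04), with no overlap between the groups. The gene AC074091.1 on the same strand covers 31.6% of the exonic bases of ZNF512, so its counts are uncertain. ZNF618, a partner of UHRF2, had 0.0657 and 0.507 CPM with GNE987 and 2.78 and 2.42 CPM without it (adjusted p = 0.0102), with a log2 fold change of -3.19 that was -2.36 and -5.2 without GNE987 replicates 1 and 2. ZNF711, an X-linked partner of the demethylase PHF8, had 6.5 and 7.32 CPM with GNE987 and 11 and 10.5 CPM without it, a log2 fold change of -0.64 (adjusted p = 0.0277). The call of ZNF711 was lost with upper-quartile scaling (adjusted p = 0.0901), with the replicate block (0.0601), without GNE987 replicates 1 (0.139) and 2 (0.0861) and in DESeq2 (0.0833). ZNF652 (a partner of CBFA2T3), ZNF512B and ZNF516 (a member of a CtBP complex) did not pass the threshold (adjusted p = 0.093, 0.0863 and 0.761). ZNF750 (a regulator of epidermal differentiation), ZNF503 and ZNF541 (a gene of male meiosis) had at most 0.87 CPM in any library and were not tested.

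Runs of neighbouring members on chromosome 19 are given by their counts and medians, with no test between them. For all tested genes the shares were 34.4% called higher and 37.2% lower. In the run from ZNF577 to ZNF600, 9 were tested, 6 rose and 1 fell, with a median log2 fold change of 1.49. ZNF610, in that run and chosen after its values were seen, had the largest log2 fold change of the 164 tested members, 4.0 ± 0.92 (SE; adjusted p = 0.0121), on 3.48 and 2.83 CPM with GNE987 and 0 and 0.395 CPM without it, a value that rests on untreated replicate 2 since replicate 1 had no count. In the run from ZNF700 to ZNF791, 5 were tested and ZNF563, ZNF564, ZNF791 and ZNF799 rose, with none called lower and a median of 1.34. These 2 runs kept a median above 0 with library size alone, at 1.12 and 0.98. When either GNE987 library was left out, the run from ZNF577 to ZNF600 had 2 members called higher and the run from ZNF700 to ZNF791 had 1. In the run from ZNF699 to ZNF562, 4 were tested, ZNF699 rose and ZNF559, ZNF561 and ZNF562 fell, with a median of -1.97.

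Other runs were mixed. The longest, from ZNF543 to ZNF587, had 16 tested members, of which 5 rose and 4 fell, with a median of 0.26 that library size alone turned to -0.11. From ZNF566 to ZNF573, 4 of 10 rose and 1 fell, with a median of 0.13 (-0.24 with library size alone). Against the median of all genes both runs stood at 0.29 and 0.16 with TMM factors and at 0.29 and 0.17 with library size alone. With no filter they stood at -0.08 and -0.34, and in DESeq2 at -0.08 and -0.33. From ZNF628 to ZNF581, 3 of 6 rose and 3 fell, while without GNE987 replicate 2 none was called higher and 3 were called lower, and without replicate 1 the counts were 2 and 3. On chromosome 16, the run from ZNF771 to ZNF629 held 8 tested members, of which ZNF768, ZNF771 and ZNF785 rose and ZNF629, ZNF688, ZNF689, ZNF747 and ZNF764 fell, with a median of -0.76. On chromosome 7, ZNF746 rose and ZNF777 fell in a run of 4, with a median of 0.02.

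**Figure D4:**
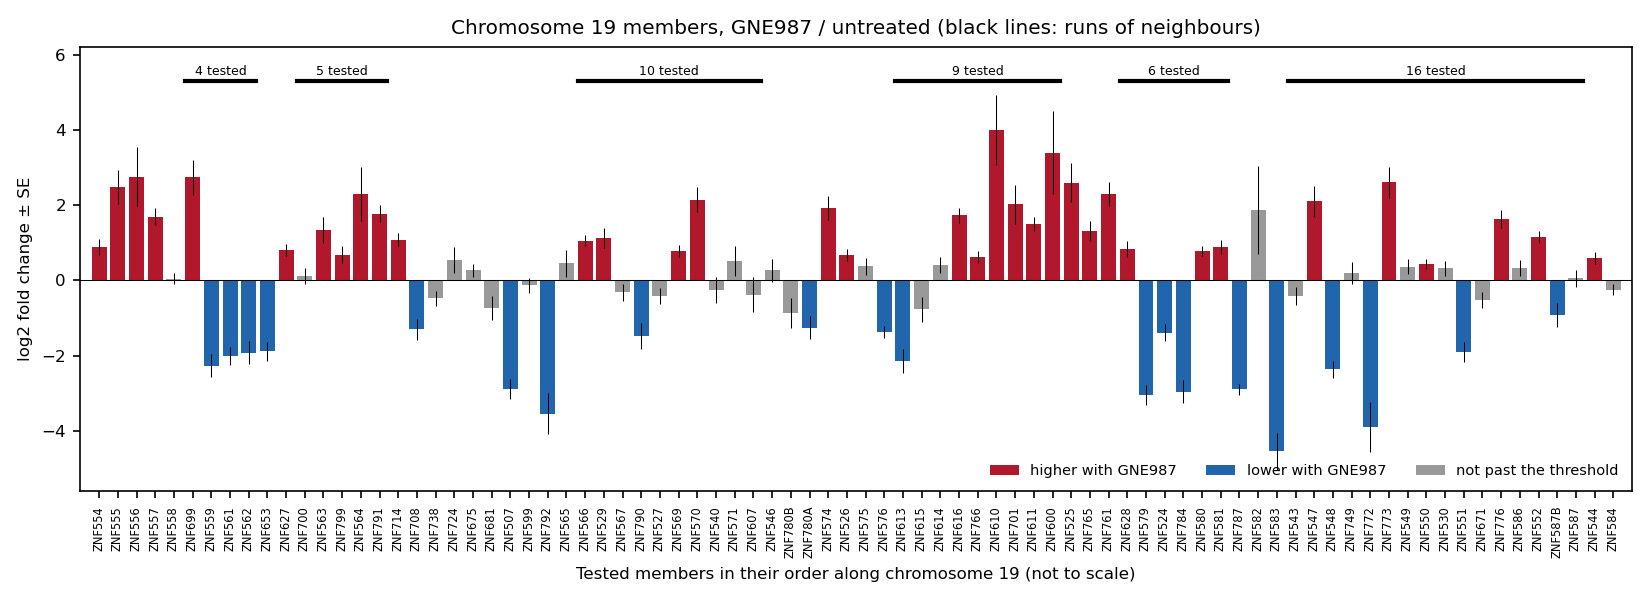
Log2 fold change (GNE987 over untreated, y axis) with bars of 1 standard error for each tested member of chromosome 19, in gene order along the x axis and not to scale. Black lines mark the runs of neighbours with the number tested; the runs of 9 and 5 are mostly red (higher), the run of 4 is mostly blue (lower) and the run of 16 is mixed.

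Genes on a list of KRAB corepressors and related chromatin partners, which also holds the zinc finger genes ZKSCAN1, ZKSCAN8 and ZSCAN9, were called in both directions. Of 25 genes with a row 24 were tested, 8 rose and 10 fell, shares of 33.3% and 41.7% that lie near the 34.4% and 37.2% of all genes. The median log2 fold change was -0.28, beside -0.03 over all genes. Without GNE987 replicates 1 and 2 it was -0.29 and -0.30, and fewer genes of the list were called higher. With library size alone 6 rose and 13 fell. TRIM28, the protein that KRAB domains bind, had 2437 and 2604 CPM with GNE987 and 552 and 928 CPM without it. It rose by 1.77 ± 0.27 on the log2 scale (SE; adjusted p = 0.00326), and by 2.2 without untreated replicate 2. SETDB1, the methyltransferase that TRIM28 recruits, had 2.1 and 3.26 CPM with GNE987 and 23.3 and 18.9 CPM without it. It fell by 2.98 ± 0.27 on the log2 scale (SE; adjusted p = 6.95e-04). The treated and untreated values of both genes lay far apart, in opposite directions.

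Of the HP1 genes, CBX3 and CBX5 rose by 0.72 and 0.48 and CBX1 fell by 1.22 (adjusted p = 0.00744, 0.0185 and 0.0015). The remodeller SMARCAD1 had 5.06 and 3.48 CPM with GNE987 and 51.4 and 39 CPM without it, a log2 fold change of -3.4 ± 0.25 (SE; adjusted p = 4.07e-04). EHMT1 and EHMT2, which methylate histone H3 at lysine 9, fell by 2.26 and 1.67 (adjusted p = 3.79e-04 and 4.12e-04). In the HUSH complex FAM208A, the gene of TASOR, and PPHLN1 fell by 1.69 and 1.27, while MPHOSPH8 and its partner MORC2 rose by 0.88 and 0.85 (adjusted p = 8.67e-04, 9.15e-04, 0.00491 and 0.00535). KIAA1551, MORC3 and the zinc finger gene ZKSCAN1 rose, and HDAC2, SUMO2 and the zinc finger gene ZKSCAN8 fell.

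**Figure D5:**
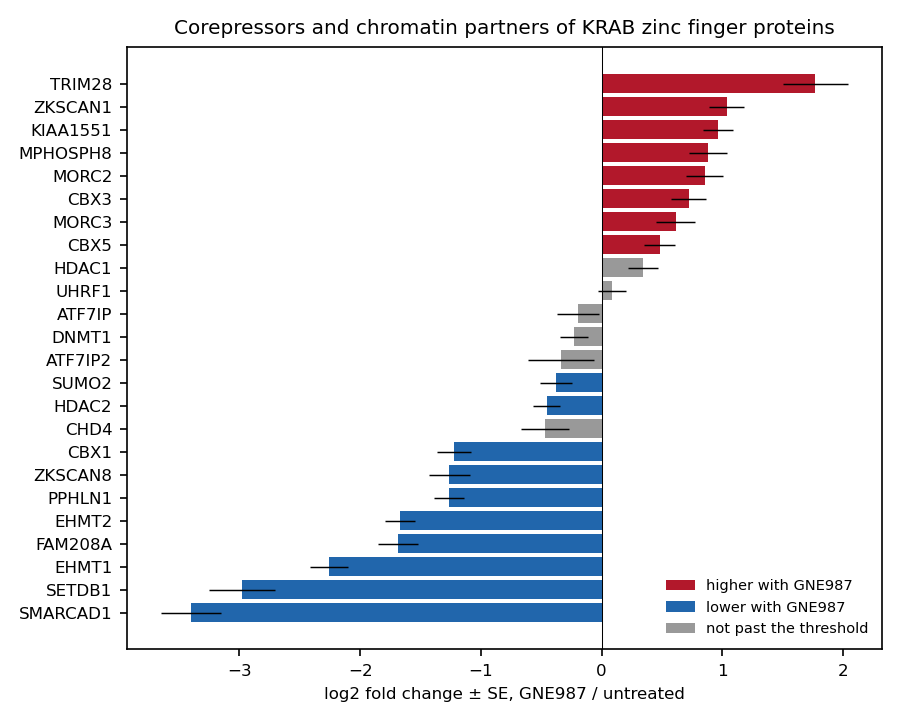
Log2 fold change (GNE987 over untreated, x axis) with bars of 1 standard error for the 24 tested genes of the corepressor list, from the largest rise at the top to the largest fall at the bottom. TRIM28 leads the 8 that rose and SMARCAD1 and SETDB1 the 10 that fell; grey bars did not pass the threshold.

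Another list joined the Z3 and HUSH genes with their zinc finger partners, and shares several genes with the list above. Of its 12 tested genes 4 rose and 7 fell, shares of 33.3% and 58.3% beside 34.4% and 37.2% of all genes. Their median was -1.29. ZMYND8 had 0.656 and 1.01 CPM with GNE987 and 14.9 and 10.6 CPM without it and fell by 3.93 ± 0.35 on the log2 scale (SE; adjusted p = 6.39e-04), WIZ fell by 1.31 (adjusted p = 0.00148), and of the zinc finger members ZNF638 fell, ZNF644 and ZNF687 rose and ZNF592 did not pass the threshold.

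The 29 members that were not tested had at most 45 counts over the 4 libraries and at most 1.31 CPM in any library. Of these 18 lie on chromosome 19 and 20 carry a KRAB pattern. In 24 of them the mean was higher with GNE987, 8 had no count in either untreated library and 1 had none in either GNE987 library, and no fold is given. The TMM factors were 0.896 and 0.862 for the GNE987 libraries and 1.18 and 1.10 for the untreated ones. A single count is therefore worth more CPM in a GNE987 library, which matters at such low counts. Other genes that were not tested were not counted this way. ZNF683, which encodes the lymphocyte residency factor HOBIT and was picked for its values, was tested and had 1 count with GNE987, against 39 in the untreated libraries. That is a ratio of 0.0376 with an exact 95% counting interval of 0.000927 to 0.222 (adjusted p = 0.00812).

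Reads cannot be assigned with certainty where members overlap other genes or share sequence, since the TruSeq kit named in the labels does not mark the strand. Of the tested members, 41 had at least 10% of their exonic bases overlapped by another gene or at least 10% of their 50-base stretches in another gene, and of these 15 rose and 12 fell. Of the 123 others, 50 rose and 37 fell. These are 36.6% and 29.3% of the 41 and 40.7% and 30.1% of the 123, beside 34.4% and 37.2% of all tested genes.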

How the data were processed

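Polyadenylated RNA of 4 Jurkat libraries was sequenced after TRIzol extraction and TruSeq library preparation, per the labels' protocols. HISAT2 2.2.0 and hg38 come from the submitters' processing notes. How reads were counted, with which annotation and strand setting, is not stated there. The deposited table gives the authors' raw count per gene and library, a normalized signal deposited beside it, and the authors' FPKM. It also holds a deposited log2 fold change and p-value with adjusted p by a test not given here. Raw counts entered the tests, FPKM the levels between genes, and the normalized signal was not used.

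The filter was filterByExpr (minimum count 10, minimum total 15), the scaling TMM, and the test the quasi-likelihood F test of edgeR 4.0.16 in R 4.3.3, GNE987 over untreated, with 2 residual degrees of freedom. Benjamini-Hochberg adjustment ran over 15910 genes, and the threshold was 0.05. The standard error is the size of the log2 fold change divided by the square root of F. At this depth 3 counts equal 0.158 to 0.187 CPM of a library's total, a floor that covers counting error only, as the intervals do; the floor used for ZNF600 is TMM-scaled. The steps were run on simulated counts in which few genes changed, equally up and down, and replicates were alike. That does not show how they behave where most genes are called and the untreated pair differs as here.

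All 26733 identifiers matched GENCODE release 29, which supplied coordinates on GRCh38, overlaps, shared 50-base stretches and coding sequences searched with Python 3.11.15 for KRAB and C2H2 patterns. Promoters are from RefSeq (GRCh38.p14). Neighbours have starts within 100 kb, and runs are members with gaps of at most 250 kb and at least 4 tested. The genes named are the 12 largest rises and falls past the threshold with at least 2 CPM on average and the same direction in all pairs, the 6 highest mean FPKM, a list of members with a known role, the 4 most different opposite neighbours and the 3 nearest 0. The members, lists and rule were chosen with earlier results of these data known, so their direction is not independent evidence. An item on the corepressor list is not reported here. Alternatives were RLE, upper-quartile and library size scaling, no filter, a filter of 2 CPM in 2 libraries, the replicate number as a block, DESeq2 1.42.0, and each library left out in turn. Same-numbered libraries did not deviate together (correlation -0.00138), so the numbers were not taken as pairs.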

Additional observations from a re-analysis of the deposited data

How the results depend on the processing

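Of the 114 called members, 112 kept their call and direction with RLE factors, 109 with upper-quartile scaling, 99 with library size alone, 106 without a filter on low counts, 106 with a filter of 2 CPM in 2 libraries, 105 in DESeq2, 69 and 74 without GNE987 replicates 1 and 2, and 112 and 114 without untreated replicates 1 and 2. None was called in the other direction in any of these. Leaving out a library leaves a lone sample that is assumed to vary like the other group. The members' median log2 fold change was 0.38 with upper-quartile scaling, 0.27 with RLE factors, -0.19 with library size alone, 0.26 with the 2 CPM filter and 0.37 in DESeq2, against 0.18 with TMM factors. Over all genes it was 0.16, 0.06, -0.41, -0.05 and 0.34, against -0.03. With the 3 scalings the gap between the members and all genes stayed at 0.21 to 0.22. With the 2 CPM filter it was 0.31, and in DESeq2 and with no filter (medians 0.22 and 0.19), where all 193 members enter, it was 0.03. With 1 library left out in turn the count of members higher ranged between 33 and 76, and that of the corepressor list between 4 and 9. For the lower counts the ranges were 37 to 59 and 8 to 12.

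With the replicate block 59 members were higher and 47 lower with a median of 0.18, the corepressor list had 8 higher and 9 lower, and 106 of the 114 calls were kept. The same-numbered libraries share only a number. Among the genes named, ZNF600, ZNF706 and ZNF711 lost their call with the block.

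Values near 0 changed sign. ZNF598 was at 0.18 with upper-quartile scaling, 0.072 with RLE factors and 0.095 with the 2 CPM filter, and from -0.134 to 0.040 with 1 library left out in turn. ZNF516 was at 0.096 with upper-quartile scaling and 0.014 with the 2 CPM filter, and from -0.393 to 0.118 with 1 library left out. With library size alone ZNF672, ZNF558 and ZNF592 were at -0.25, -0.33 and -0.33, and with no filter at -0.021, -0.101 and -0.106. With 1 library left out ZNF558 ranged from -0.022 to 0.072 and ZNF592 from -0.0086 to 0.054. The cause of these sign changes was not tested. ZNF672 passed the threshold with upper-quartile scaling, ZNF598 with library size alone, ZNF512B with library size alone, with no filter and when either untreated library was left out, and ZNF652 with library size alone and without untreated replicate 2.

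Calls of rises rest on the untreated pair, which differs more than the GNE987 pair. Beside the losses given with each gene in the text, ZNF581 lost its call without GNE987 replicate 2. ZNF772 has no value under the 2 CPM filter. With 2 libraries a group, a member that did not pass the threshold is not shown to be unchanged, and at this depth the 29 members not tested were too low to judge.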
